A study of Arabidopsis thaliana with 9 samples.

Results

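The 38 genes described here are the cyclins, cyclin-dependent kinases and replication and cytokinesis proteins that mark dividing cells in Arabidopsis thaliana. They were chosen by name from the 28775 genes of the deposited count table, not by a threshold on their measured values, although earlier results of these data were known: the helicase genes MCM2 to MCM7, PCNA1, PCNA2, CDC6, CDT1A, TSO2, 4 groups of cyclins, the CDKB kinases, the aurora kinases, KNOLLE and HINKEL. All 38 were in the table, and all 38 passed the filter on low counts that left 19580 genes for testing. For the comparison of S-phase with mitotic members they were split into 13 S-phase genes, 3 D3 cyclins, 4 A2 cyclins and 18 mitotic genes.

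The study asked how a plant root responds to carbenicillin, a beta-lactam antibiotic that is added to plant culture media against bacteria. RNA was taken from roots of seedlings of the ecotype Col-0, and no group carried a mutation or transgene. Mock seedlings grew for 6 days on ½ MS plates without antibiotic and were then moved to fresh ½ MS plates. The 1 day group was moved to plates with 10 µg/mL carbenicillin for the last day, while the 7 day group was on 10 µg/mL carbenicillin throughout, for 6 days on the first plate and 1 day on the second. Each group had 3 libraries. Nothing in the labels says whether the 3 came from separate plates or harvests, so p-values measure the spread between these libraries, which may be technical.

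In the root, cells divide in the meristem behind the tip and in lateral root primordia. D-type cyclins carry cells from G1 into S phase by relieving the retinoblastoma-related brake on E2F factors, which switch on genes for DNA replication such as the MCM helicase, PCNA and ribonucleotide reductase. Later, MYB3R factors bind mitosis-specific activator (MSA) elements in genes of the G2 and M phases, among them B-type cyclins and the cytokinesis gene KNOLLE. Transcript levels of these genes are therefore used as a readout of how many cells of a tissue are in each phase.

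The upstream DNA of the members carries words of both kinds of element. The 250 bases before each annotated gene start were read from the RefSeq assembly TAIR10.1, on the gene's strand, and searched on both strands for the E2F words TTTCCCGC, TTTCGCGC, TTTGCCGC and TTTGGCGC and for the MSA core word CAACGG. An E2F word stood in 5 of the 13 S-phase windows (MCM2, MCM3, MCM4, MCM5 and MCM6), in 1 of the 3 D3 cyclin windows (CYCD3;3) and in 0 of the 18 mitotic windows, against 1.41% of the 27443 windows of all protein-coding genes. The MSA core word stood in 8 of the 18 mitotic windows (CYCB1;1, CYCB1;2, CYCB1;3, CYCB2;1, CYCB2;2, CYCB2;3, CDKB2;2 and KNOLLE) and in 0 of the 13 S-phase windows, against 5.28% of all windows. The shorter word AACGG, which is contained in CAACGG, was found in 12 of 18 mitotic and 2 of 13 S-phase windows, against 20.6% of all. These matches describe the letters of the windows and are no evidence of binding. Shown here are a pair of S-phase genes and 3 mitotic genes that belong to the groups described further on, 5′ to 3′ with the matched word or its reverse complement in capitals. The windows lie at chr1:16969964-16970213 on the plus strand (MCM2), chr2:3527501-3527750 on the minus strand (MCM5), chr4:17624309-17624558 on the minus strand (CYCB1;1), chr2:7663805-7664054 on the plus strand (CYCB2;1) and chr1:2711001-2711250 on the minus strand (KNOLLE).
MCM2: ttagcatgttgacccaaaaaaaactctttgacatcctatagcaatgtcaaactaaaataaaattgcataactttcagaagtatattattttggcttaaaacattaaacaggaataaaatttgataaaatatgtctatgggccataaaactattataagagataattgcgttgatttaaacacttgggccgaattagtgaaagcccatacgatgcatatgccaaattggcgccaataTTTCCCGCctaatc
MCM5: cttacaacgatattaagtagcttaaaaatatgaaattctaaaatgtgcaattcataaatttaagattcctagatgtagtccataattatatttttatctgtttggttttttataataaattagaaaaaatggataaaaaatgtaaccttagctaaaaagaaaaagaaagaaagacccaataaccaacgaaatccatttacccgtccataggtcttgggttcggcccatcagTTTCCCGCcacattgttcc
CYCB1;1: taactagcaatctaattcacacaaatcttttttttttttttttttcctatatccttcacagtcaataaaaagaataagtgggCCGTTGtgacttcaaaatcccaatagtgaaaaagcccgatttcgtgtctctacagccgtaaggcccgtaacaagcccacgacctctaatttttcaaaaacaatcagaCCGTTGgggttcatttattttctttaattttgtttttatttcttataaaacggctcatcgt
CYCB2;1: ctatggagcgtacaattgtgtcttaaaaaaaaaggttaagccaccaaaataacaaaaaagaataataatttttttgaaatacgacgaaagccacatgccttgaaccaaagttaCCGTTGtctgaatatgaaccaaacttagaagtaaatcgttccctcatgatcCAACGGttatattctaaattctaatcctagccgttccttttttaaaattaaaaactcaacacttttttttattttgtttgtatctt
KNOLLE: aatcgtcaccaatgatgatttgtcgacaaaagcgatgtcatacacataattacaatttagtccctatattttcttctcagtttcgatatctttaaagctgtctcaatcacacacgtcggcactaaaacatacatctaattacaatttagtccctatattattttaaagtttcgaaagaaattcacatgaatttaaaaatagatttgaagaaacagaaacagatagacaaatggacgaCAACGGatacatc
The E2F word began 14 bases before the start of MCM2 and 19 bases before that of MCM5. The MSA core words began 168 and 61 bases before the start of CYCB1;1, 137 and 86 bases before that of CYCB2;1 and 13 bases before that of KNOLLE.

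The libraries held 5820675 to 16088265 counts, and mock 1, 1 day 3 and 7 days 3 were the shallow ones, with at most 7533177. The root label fitted the level of PYK10, a glucosidase abundant in roots, which stood between 15851 and 26309 CPM in all 9 libraries. The root meristem markers ranged from WOX5, at 0.18 to 1.05 CPM, to SCR, at 24.6 to 37.7 CPM. Shoot transcripts were nevertheless present in part of the libraries, with a summed level of 8 photosynthesis and leaf defence genes of 0.758 to 38.6 CPM in mock, 1.31 to 62.4 CPM after 1 day and 0.603 to 92.6 CPM after 7 days. The high sums were in mock 1, mock 3, 1 day 3 and 7 days 3, so they did not follow the treatment. Library 1 day 2 was most often at either end of the range. It was the lowest of the 9 libraries for 21.1% of all genes tested and the highest for 20.5%. Mock 1 was lowest for 17.1% and highest for 14.9%, and 7 days 3 was lowest for 16.6% and highest for 17.9%. The 1 day changes of the 38 genes named below are given with and without 1 day 2. CPM are counts normalised to library size, with library sizes scaled by TMM. Values of 3 libraries are always in the order of replicates 1, 2 and 3.

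After 1 day on carbenicillin the cell cycle genes were slightly lower on balance, and none passed the test. The log2 fold change against mock was negative for 30 of the 38 and positive for 8, with a median of -0.12, whereas over all 19580 genes 9846 were lower and the median was -0.0013. In the quasi-likelihood fit of edgeR, adjusted by Benjamini-Hochberg over all genes tested, 0 of the 38 were called at an adjusted p under 0.05, against 0.158% of all genes, and the lowest adjusted p was 0.688. At an unadjusted p under 0.05 the count was also 0 of 38, against 7.45% of all genes. DESeq2 called 0 of the 38, and 62 higher and 141 lower among 24633 genes. For 2 members, CYCA3;1 and KNOLLE, the groups did not overlap. They were lower in every 1 day library than in every mock library, against 5.79% of all genes, and 0 members were higher throughout, against 6.52%. Without 1 day 2, 24 members were higher and 14 lower, with a median of 0.05. Leaving out another 1 day library had the opposite effect. Without 1 day 1, 34 members were lower, with a median of -0.21, and without 1 day 3, 32 were lower, with a median of -0.21. In whole-root RNA, fewer dividing cells and less RNA per dividing cell cannot be told apart.

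**Figure D1:**
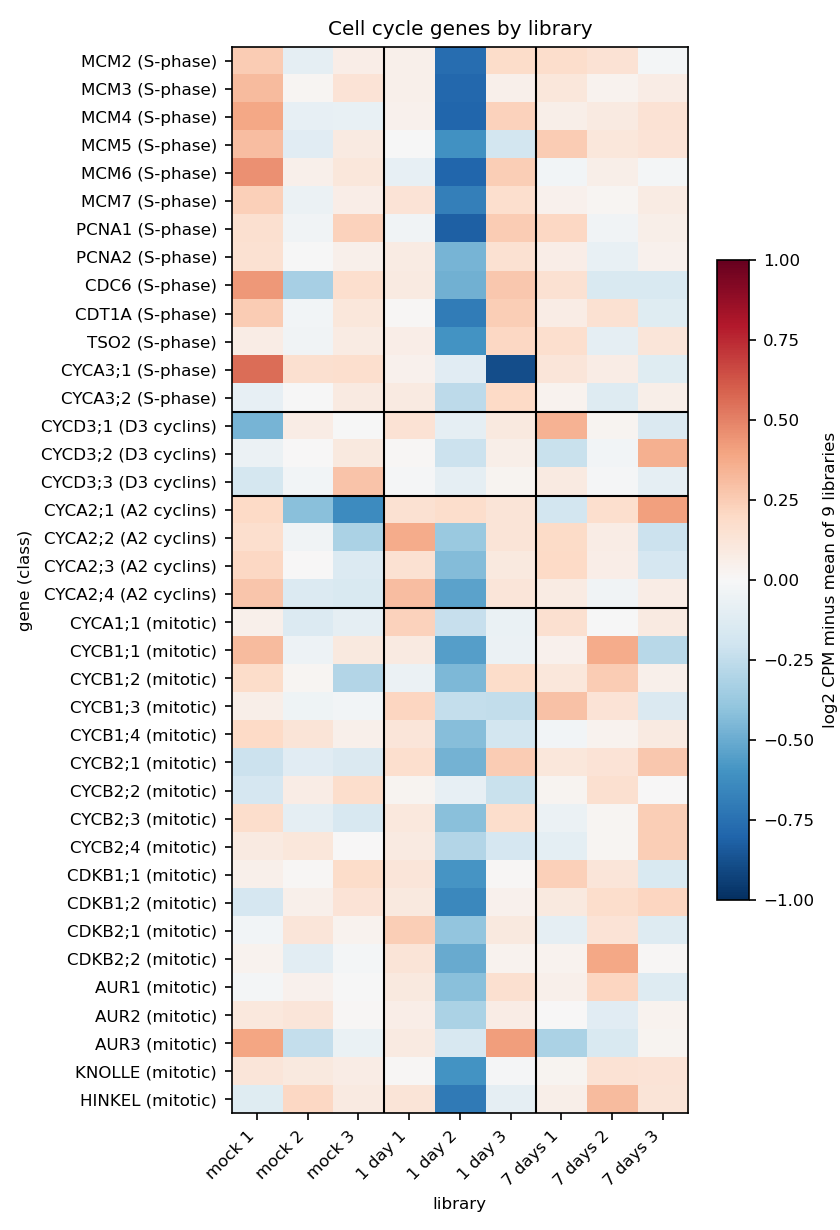
Level of each of the 38 genes in each of the 9 libraries, as log2 CPM minus the gene's mean over the 9 libraries (blue lower, red higher); vertical lines part mock, 1 day and 7 days, and horizontal lines part the 4 classes. The column of 1 day 2 is blue for nearly all genes and holds the lowest value of 30 of the 38, while the columns of the 7 day libraries are pale.

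Of the S-phase genes 12 of 13 were below mock at 1 day, with a median of -0.21 that became 0.04 without 1 day 2, and the MCM helicase, which unwinds DNA at replication forks, was part of this. All 6 MCM genes had a negative change, between -0.37 and -0.16. Without 1 day 2, 3 were above mock and 3 below, between -0.18 and 0.07. MCM5 (AT2G07690) stood at 35.6, 26.6 and 30.6 CPM in mock, 28.6, 18.8 and 25.3 CPM after 1 day and 34.3, 31.1 and 31.6 CPM after 7 days. The lowest library was 1 day 2, but 1 day 1 and 1 day 3 also lay below the mock mean of 30.9 ± 4.50 CPM (SD, n = 3), although mock 2 overlapped them. The log2 fold change of MCM5 was -0.34 (SE 0.16), with a 95% interval of -0.70 to 0.01 and an adjusted p of 0.688 by edgeR. MCM6 (AT5G44635), another helicase subunit, stood at 22.8, 17.2 and 17.9 CPM in mock, 15.7, 9.51 and 19.7 CPM after 1 day and 16.3, 17.2 and 16.3 CPM after 7 days. Mock 1 was its highest library and 1 day 2 its lowest, with the remaining 7 between 15.7 and 19.7 CPM, and its change was -0.37 (SE 0.22). Mock 1 was the highest of the 9 libraries for all 6 MCM genes and for 10 of the 13 S-phase genes, so both ends of the range often fell on single libraries.

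PCNA, the sliding clamp of the replication fork, is encoded by a pair of genes. PCNA1 (AT1G07370) stood at 25.6, 22.4 and 26.9 CPM in mock, 22.3, 12.9 and 27.3 CPM after 1 day and 26.4, 22.3 and 23.8 CPM after 7 days. Its 8 libraries other than 1 day 2 lay between 22.3 and 27.3 CPM, and the groups overlapped. PCNA2 (AT2G29570) stood at 30.8, 27.6 and 28.6 CPM in mock, 29.3, 19.97 and 30.8 CPM after 1 day and 29.0, 26.2 and 28.5 CPM after 7 days, again with a single low library. The changes at 1 day were -0.28 (SE 0.22) for PCNA1 and -0.12 (SE 0.15) for PCNA2, and without 1 day 2 they were -0.01 and 0.05. TSO2 (AT3G27060), a small subunit of ribonucleotide reductase, which makes deoxynucleotides for replication, was the S-phase gene with the highest CPM. It stood at 62.9, 58.3 and 63.1 CPM in mock, 62.4, 39.4 and 68.9 CPM after 1 day and 67.2, 55.9 and 64.7 CPM after 7 days. Outside 1 day 2 its range was 55.9 to 68.9 CPM, and its change was -0.12 (SE 0.18), or 0.09 without 1 day 2. The licensing factors CDC6 and CDT1A, which load the helicase onto origins, differed from mock by -0.12 (SE 0.24) and -0.22 (SE 0.20), and without 1 day 2 by 0.09 and 0.02.

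CYCA3;1 (AT5G43080), an S-phase cyclin, did not follow the other S-phase genes. It stood at 5.61, 4.21 and 4.24 CPM in mock, 3.87, 3.47 and 1.96 CPM after 1 day and 4.09, 3.96 and 3.45 CPM after 7 days, on counts of 15 to 67 reads. Every 1 day and 7 day library was below every mock library, and the lowest was 1 day 3, not 1 day 2. Its change at 1 day, -0.51 (SE 0.24), was the lowest fitted value of the 38. The 95% interval was -1.05 to 0.02 and the adjusted p 0.690 by edgeR. The change was -0.59 without 1 day 2, -0.70 without 1 day 1 and -0.32 without 1 day 3. Under the other processing alternatives it lay between -0.60 and -0.21, so its size depended on single libraries and on the processing. Its paralogue CYCA3;2 was at 31.2 ± 1.85 CPM in mock and 31.7 ± 5.06 CPM after 1 day (SD, n = 3), a change of 0.01 (SE 0.13), or 0.14 without 1 day 2.

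**Figure D2:**
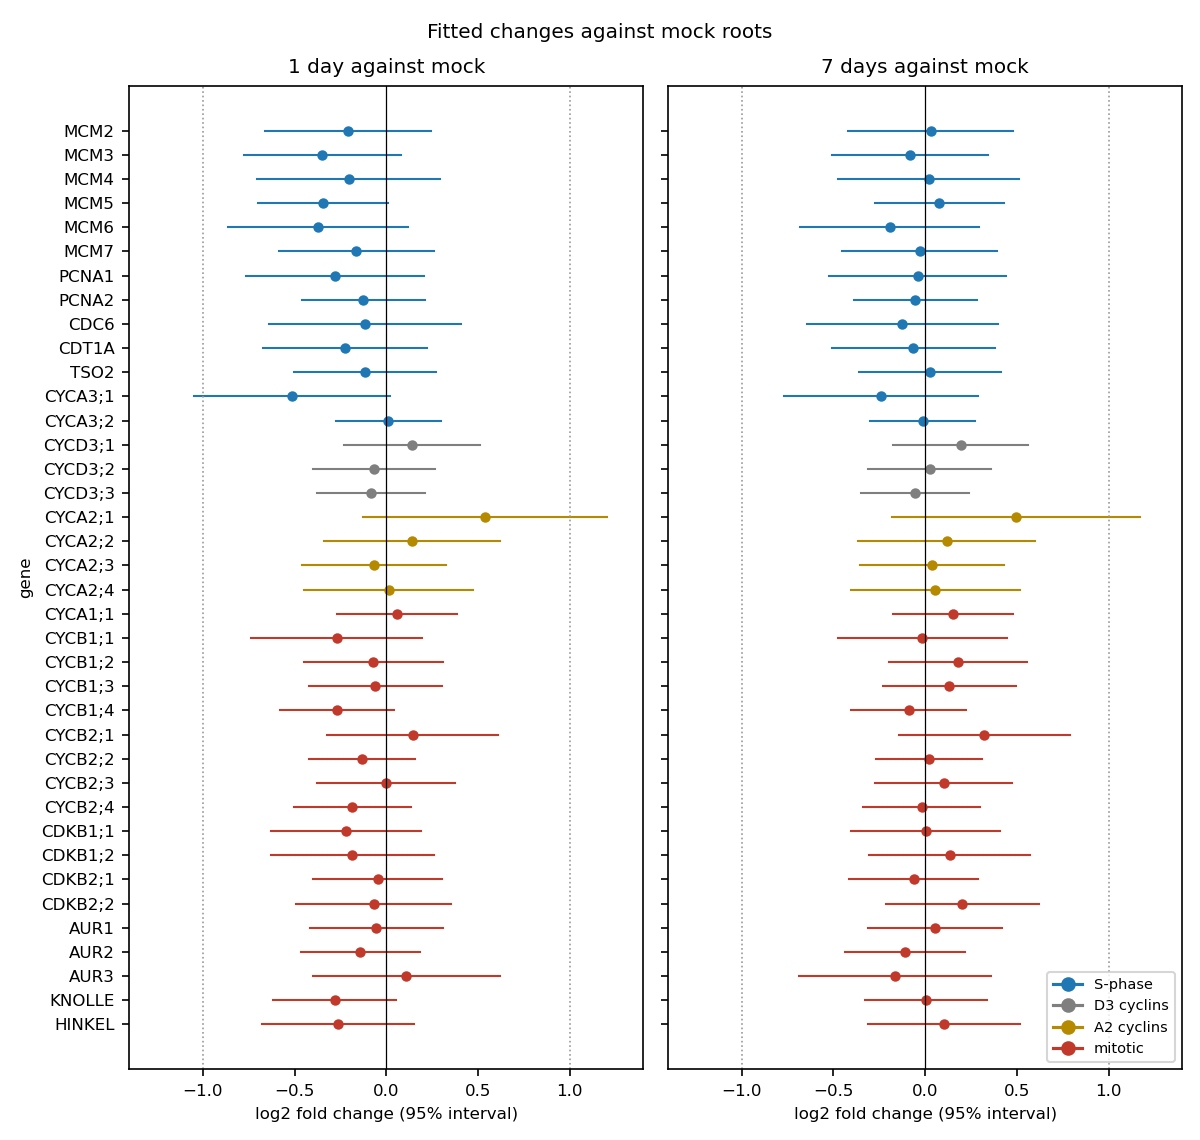
Fitted log2 fold change (point) with its 95% interval (line) for each of the 38 genes, 1 day against mock on the left and 7 days against mock on the right; colours mark the 4 classes and dotted lines a change of 1 on the log2 scale. At 1 day 30 points lie below 0, at 7 days 16, and every interval of both panels includes 0.

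The D3 cyclins, which promote entry into the cycle, had fitted changes on both sides of 0. CYCD3;1 (AT4G34160) stood at 12.4, 18.2 and 17.2 CPM in mock, 19.0, 16.2 and 18.4 CPM after 1 day and 22.0, 17.6 and 15.6 CPM after 7 days. Its lowest library was mock 1 and its highest 7 days 1, and the groups overlapped. CYCD3;2 (AT5G67260) stood at 21.9, 22.9 and 24.5 CPM in mock, 23.1, 19.7 and 23.8 CPM after 1 day and 19.5, 22.5 and 29.4 CPM after 7 days, with its extremes both in the 7 day group. CYCD3;3 (AT3G50070) stood at 15.8, 17.5 and 21.8 CPM in mock, 17.7, 16.7 and 18.1 CPM after 1 day and 18.9, 17.7 and 16.8 CPM after 7 days, where the mock libraries enclosed all others. The changes at 1 day were 0.14 (SE 0.17) for CYCD3;1, -0.07 (SE 0.15) for CYCD3;2 and -0.09 (SE 0.13) for CYCD3;3, and without 1 day 2 they were 0.21, 0.01 and -0.05. Library 1 day 2 was the lowest of the 9 for 0 of these 3 genes.

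A2 cyclins act before mitosis and hold back the switch to endoreduplication, in which cells copy DNA without dividing. CYCA2;1 (AT5G25380) stood at 1.93, 1.19 and 1.01 CPM in mock, 1.86, 1.89 and 1.83 CPM after 1 day and 1.44, 1.88 and 2.25 CPM after 7 days, on 11 to 30 reads. The 3 libraries at 1 day were close together at 1.83 to 1.89 CPM, but mock 1 was above them and mock 2 and mock 3 below. It had the highest fitted change of the 38 at 1 day, 0.54 (SE 0.30), with an adjusted p of 0.741 by edgeR, and 0.52 without 1 day 2. CYCA2;2 (AT5G11300) stood at 8.06, 6.98 and 5.72 CPM in mock, 9.31, 5.48 and 7.83 CPM after 1 day and 8.18, 7.51 and 6.15 CPM after 7 days. Here 1 day 1 was the highest library and 1 day 2 the lowest. CYCA2;3 (AT1G15570), the A2 cyclin with the highest CPM, stood at 15.2, 13.2 and 12.0 CPM in mock, 14.6, 9.70 and 14.1 CPM after 1 day and 15.1, 13.8 and 11.7 CPM after 7 days, and the groups of both genes overlapped. Changes at 1 day were 0.14 (SE 0.22) for CYCA2;2, -0.07 (SE 0.18) for CYCA2;3 and 0.01 (SE 0.21) for CYCA2;4, and without 1 day 2 they were 0.35, 0.11 and 0.24. At 7 days all 4 A2 cyclins had a positive fitted change, with a median of 0.09 and 0 called.

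Of the mitotic genes 15 of 18 were below mock at 1 day, with a median of -0.10 that became 0.04 without 1 day 2. Of the 8 B-type cyclins, the partners of the kinases that drive mitosis, 7 were below mock, the farthest being CYCB1;1 at -0.27, and CYCB2;1 was above it. CYCB1;1 (AT4G37490), whose promoter is used as a reporter of cells in G2 and M, stood at 12.1, 9.30 and 10.4 CPM in mock, 10.3, 6.55 and 9.27 CPM after 1 day and 9.98, 12.5 and 7.94 CPM after 7 days. Its lowest library was 1 day 2, and 7 days 3 and 7 days 2 were the lowest and highest of the rest. CYCB1;4 (AT2G26760) stood at 23.1, 21.9 and 20.8 CPM in mock, 21.9, 14.9 and 17.6 CPM after 1 day and 19.7, 20.6 and 21.4 CPM after 7 days, with 1 day 1 inside the mock range and the other 1 day libraries below it. The changes were -0.27 (SE 0.21) for CYCB1;1 and -0.27 (SE 0.14) for CYCB1;4, and without 1 day 2 they were -0.09 and -0.14. CYCB2;1 (AT2G17620) stood at 4.03, 4.34 and 4.24 CPM in mock, 5.30, 3.34 and 5.61 CPM after 1 day and 5.10, 5.17 and 5.70 CPM after 7 days, on 23 to 77 reads. All 7 day libraries were above all mock libraries, and at 1 day the libraries fell on both sides of mock. Its change at 1 day was 0.14 (SE 0.21), or 0.36 without 1 day 2. It was 0.32 (SE 0.21) at 7 days, with a 95% interval of -0.14 to 0.79 and an adjusted p of 1.000 by edgeR.

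CDKB kinases are plant-specific and act around the entry into mitosis. CDKB2;1 (AT1G76540) stood at 22.8, 25.3 and 23.9 CPM in mock, 27.6, 17.6 and 24.9 CPM after 1 day and 21.9, 25.6 and 21.3 CPM after 7 days. Both its highest and its lowest library were in the 1 day group. CDKB2;2 (AT1G20930) stood at 8.23, 7.48 and 7.94 CPM in mock, 8.81, 5.61 and 8.23 CPM after 1 day and 8.25, 10.5 and 8.09 CPM after 7 days, with 7 days 2 highest and 1 day 2 lowest. The change at 1 day was -0.05 (SE 0.16) for CDKB2;1 and -0.07 (SE 0.19) for CDKB2;2, and without 1 day 2 it was 0.13 and 0.12. The aurora kinases AUR1, AUR2 and AUR3, which phosphorylate histone H3 and act on spindle and division plane, differed from mock by -0.05 (SE 0.17), -0.14 (SE 0.15) and 0.11 (SE 0.23), and without 1 day 2 by 0.12, -0.01 and 0.25.

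Cytokinesis was covered by KNOLLE and HINKEL. KNOLLE (AT1G08560), the syntaxin that fuses vesicles into the new cell plate, stood at 27.7, 27.2 and 26.8 CPM in mock, 25.6, 16.8 and 25.2 CPM after 1 day and 25.9, 28.0 and 27.9 CPM after 7 days. The mock mean was 27.2 ± 0.444 CPM (SD, n = 3). All 1 day libraries were below all mock and all 7 day libraries, and 1 day 2 was far below the other 1 day libraries. Its change at 1 day was -0.28 (SE 0.15), with a 95% interval of -0.62 to 0.05 and an adjusted p of 0.724 by edgeR, and it was -0.10 without 1 day 2. HINKEL (AT1G18370), a kinesin of the phragmoplast that builds the cell plate, stood at 28.0, 35.1 and 32.4 CPM in mock, 33.3, 18.6 and 28.6 CPM after 1 day and 31.7, 38.1 and 33.3 CPM after 7 days. Library 1 day 2 was far below the other 8, which lay between 28.0 and 38.1 CPM, and the change at 1 day was -0.26 (SE 0.19). Exons of KNOLLE share 464 bases with a gene on the opposite strand, those of AUR2 877 bases and those of PCNA2 279 bases; 13 of the 38 had such an overlap, and since the strand setting of the counting is not given in the sources used here, reads of these partners cannot be told apart. TSO2 and CYCD3;1 shared 3 and 40 exon bases with a gene on the same strand. For CYCB2;3 and CYCB1;2, 17.0% and 11.3% of 50-base exon windows were found again elsewhere in the genome, so their counts are uncertain.

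S-phase and mitotic members were low in the same library, and the distance between them overlapped between groups. Mean log2 CPM over the 13 S-phase genes was 4.81, 4.50 and 4.64 in mock, 4.58, 3.94 and 4.63 after 1 day and 4.65, 4.56 and 4.56 after 7 days. For the 18 mitotic genes it was 3.72, 3.67 and 3.67 in mock, 3.77, 3.25 and 3.68 after 1 day and 3.70, 3.79 and 3.70 after 7 days. In both classes 1 day 2 was the lowest library. The other 8 lay between 4.50 and 4.81 for the S-phase genes, with mock 1 highest, and between 3.67 and 3.79 for the mitotic genes. The S-phase mean exceeded the mitotic mean by 0.96 ± 0.13 in mock, 0.81 ± 0.13 after 1 day and 0.86 ± 0.09 after 7 days (log2 CPM, SD, n = 3). The mock libraries spanned 0.82 to 1.09, the 1 day libraries 0.69 to 0.94 and the 7 day libraries 0.76 to 0.95, so the groups overlapped. The difference from mock was -0.15 at 1 day and -0.10 at 7 days, close to the spread within a group, and 7 days differed from 1 day by 0.04. Single libraries moved these differences in both directions. At 1 day the difference was -0.08 without 1 day 2, -0.08 without mock 1, -0.22 without mock 2 and -0.21 without 1 day 3. At 7 days it was -0.04 without mock 1, -0.17 without mock 2 and -0.06 without 7 days 2. Between 7 days and 1 day it was -0.02 without 1 day 2, -0.0034 without 7 days 1, 0.11 without 1 day 3 and 0.09 without 7 days 2. With medians over the genes in place of means the differences were -0.09 at 1 day, -0.02 at 7 days and 0.07 between them. Since these are means over chosen genes, no test was made of them.

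**Figure D3:**
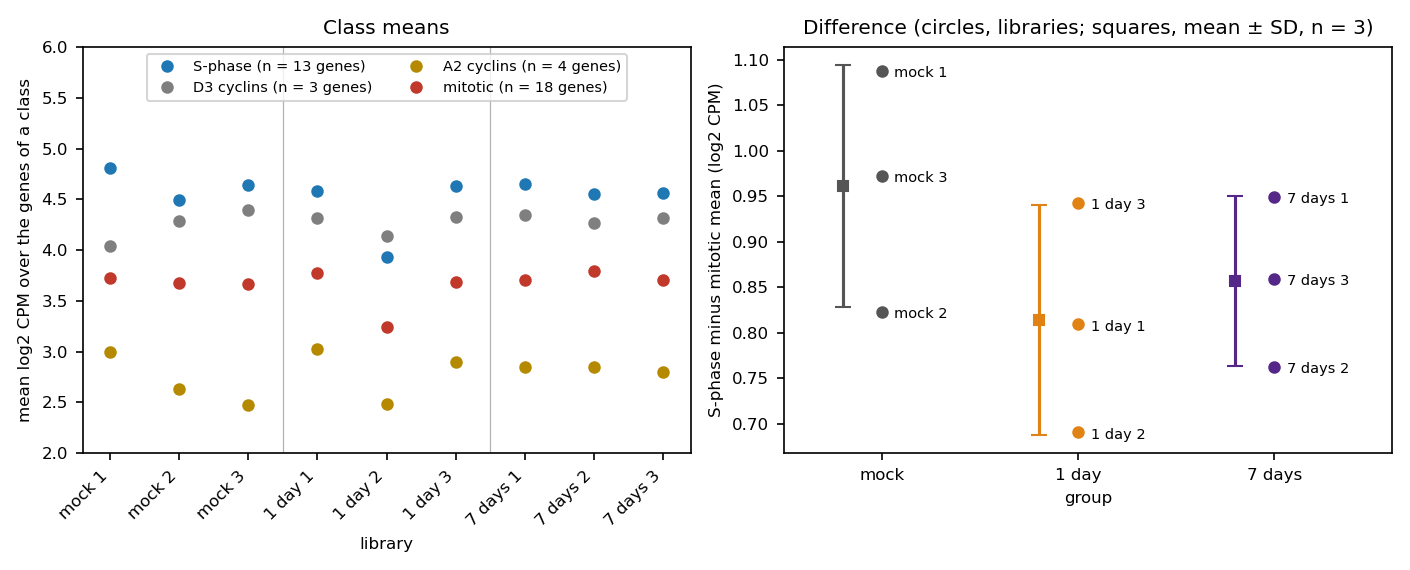
Left, mean log2 CPM over the genes of each class in each library; right, S-phase mean minus mitotic mean in each library (circles) with the group mean ± SD (squares with bars, n = 3 libraries). In library 1 day 2 the S-phase mean is 3.94 and the mitotic mean 3.25, below all other libraries, and the differences of the 3 groups on the right overlap.

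Library 1 day 2 was low across nearly all of the 38 genes. Its log2 CPM lay below the mean of the other 8 libraries for 37 of them, CYCA2;1 being the exception at 0.20, with a median difference of -0.51 against 0.02 over all genes tested. It was the lowest of the 9 libraries for 30 of the 38, against 21.1% of all genes. The difference was largest for the MCM genes, with a median of -0.87 and all 6 lowest, and had a median of -0.77 over the S-phase genes (12 of 13 lowest), -0.47 over the mitotic genes (15 of 18), -0.45 over the A2 cyclins (3 of 4) and -0.11 over the D3 cyclins. This library was the deepest, with 16088265 counts. Its mitochondrial share of 3.93% and plastid share of 2.28% were within the range of the other libraries, and its shoot sum of 2.11 CPM was below those of the 4 libraries with high sums.

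Many related genes outside the 38 were low in that library too. Of 22 replication factors outside the members, 15 were lowest in 1 day 2, with a median difference of -0.41, and of 17 mitosis and cytokinesis genes 15 were lowest, with a median of -0.54. Among them TOPII, the topoisomerase that untangles chromosomes, stood at 37.7 CPM in 1 day 2 and at 65.2 to 91.1 CPM in the others. MYB3R4, an activator of mitotic genes, stood at 12.3 CPM against 19.2 to 22.4 CPM elsewhere. Its list, 7 activators of the anaphase-promoting complex and MYB3R factors, was not low as a whole. Of the 7, 4 were below the mean of the other 8 libraries and 3 above, with a median of -0.02, and only 1 was lowest in 1 day 2. CDK inhibitors mostly went the other way, with 12 of 16 above the mean of the other 8, 4 below it and a median of 0.36. Over all genes tested 47.3% were below that mean. The inhibitors ranged from -0.45 to 0.66, the highest being the stress-linked SMR7, at only 0.91 to 2.21 CPM. Of the 7 root meristem markers 6 were below the mean of the other 8 and 5 were lowest in 1 day 2, with a median of -0.46. The 1 above that mean was WOX5, at 0.10. Among the lowest in 1 day 2 were PLT2, at 4.73 CPM against 6.24 to 8.09 CPM elsewhere, and SHR, at 16.9 CPM against 20.5 to 29.2 CPM. The 4 lateral root initiation markers differed from this, with 3 above the mean of the other 8, 1 below and a median of 0.37. In the 1 day comparison these 4 were all above mock, with a median of 0.18 and 0 called by edgeR. Of the 5 markers of differentiated root cells 3 were above the mean of the other 8 and 2 below it, with a median of 0.19. PYK10 was at 0.47, EXP7 at 0.28 and CASP1 at 0.19, and COBL9 and RHD6 were at -0.05 and -0.13. The part of the makeup of the sampled root in the low values of this library was not tested.

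**Figure D4:**
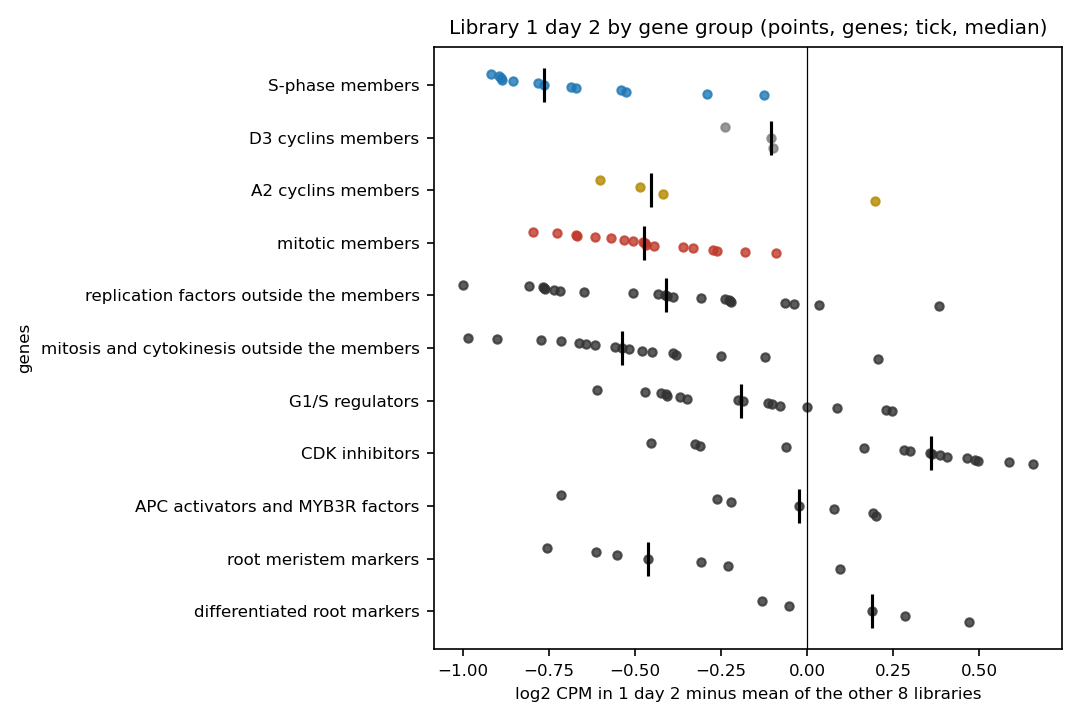
Log2 CPM in library 1 day 2 minus the mean of the other 8 libraries, 1 point per gene, for the 4 classes of the 38 genes and for 7 lists of other genes; ticks mark medians. S-phase genes (median -0.77), mitotic genes (-0.47) and root meristem markers (-0.46) lie mostly left of 0, and CDK inhibitors (0.36) mostly right of it.

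Much of the 1 day difference rested on this library. Without it the S-phase median was 0.04, with 8 higher and 5 lower, and the mitotic median was 0.04, with 10 higher and 8 lower. The median SD of log2 CPM over the 38 genes at 1 day was 0.34 with the library and 0.10 over 1 day 1 and 1 day 3 alone. It was 0.15 in mock and 0.12 after 7 days, each over 3 libraries, so the 0.10 is not directly comparable with them. Over all genes the same medians were 0.19 and 0.12, with 0.17 in mock and 0.17 after 7 days. MCM5 was -0.18, MCM6 -0.12 and HINKEL -0.05 against mock without 1 day 2, and 0 of the 38 were called in that fit either, where the lowest adjusted p by edgeR was 0.890.

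**Figure D5:**
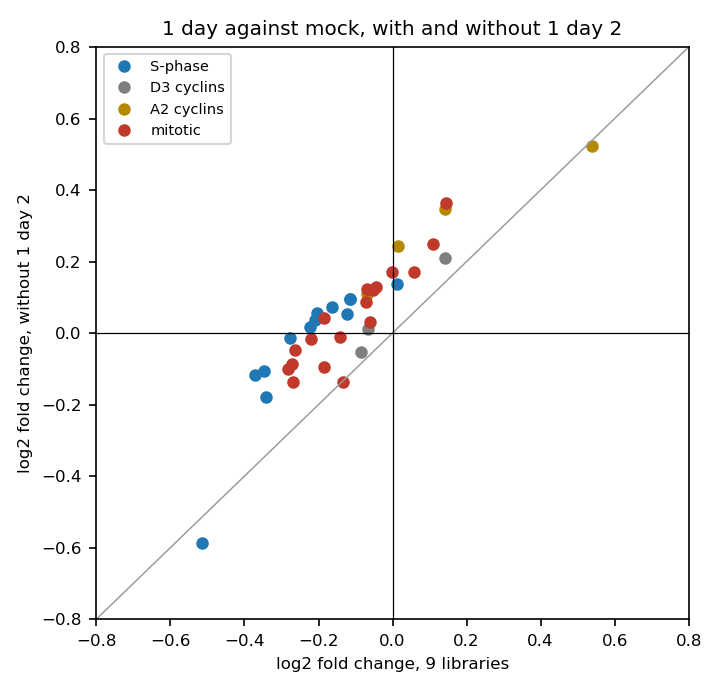
Log2 fold change at 1 day against mock of each of the 38 genes, fitted with all 9 libraries (x axis) and without 1 day 2 (y axis); the grey line marks equal values. Nearly all points lie above the line, and the number of genes below 0 is 30 on the x axis and 14 on the y axis, with CYCA3;1 at -0.51 and -0.59.

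After 7 days on carbenicillin the 38 genes lay on both sides of mock. The fitted change was positive for 22 and negative for 16, with a median of 0.02, beside a median of 0.0013 over all genes. By edgeR's quasi-likelihood test 0 of the 38 were called, against 0% of all genes, and 0 reached an unadjusted p under 0.05, against 4.44% of all genes. DESeq2 called 0 of the 38, and 20 higher and 25 lower among 24633 genes. CYCB2;1 alone was higher in every 7 day library than in every mock library, against 4.62% of all genes, and CYCA3;1 alone was lower throughout, against 4.53%. The S-phase median was -0.04, with 4 of 13 higher, and the mitotic median was 0.04, with 12 of 18 higher. The MCM genes were divided, 3 higher and 3 lower, with a median of -0.0057. KNOLLE, at 27.2 ± 0.444 CPM in mock and 27.3 ± 1.19 CPM after 7 days (SD, n = 3), had a change of 0.00 (SE 0.15). Of the 95% intervals, 37 of 38 lay within a change of 1 on the log2 scale in either direction, CYCA2;1 being the exception, and 36 of 38 did so at 1 day, where CYCA3;1 also reached beyond it. Over all genes these shares were 87.7% and 86.5%.

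Between 7 days and 1 day, 32 members were higher at 7 days and 6 lower, with a median of 0.16 beside 0.0021 over all genes. This comparison shares its 1 day libraries with the one against mock, so both are not independent. By edgeR 0 of the 38 were called, against 0% of all genes, and DESeq2 called 0 of the 38 and 0 of 24633 genes. MCM5 was the 1 member with an unadjusted p under 0.05 by edgeR, against 2.03% of all genes, with a change of 0.42 (SE 0.16). In 3 members, MCM5, CDKB1;2 and KNOLLE, every 7 day library was above every 1 day library, against 3.06% of all genes, and in 0 was every one below, against 3.31%. Without 1 day 2 the count was 15 higher and 23 lower, with a median of -0.02. The S-phase median went from 0.18 to -0.07 and the mitotic median from 0.18 to 0.06.

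Other genes of the pathway gave no calls by edgeR either. In the 1 day comparison 15 of the 22 other replication factors were lower, with a median of -0.14. Of the 17 other mitosis and cytokinesis genes 15 were lower, with a median of -0.11. Over all genes tested 50.3% were lower. In library 1 day 2, 15 of the 22 and 15 of the 17 had their lowest value. Neither list was fitted without that library, so how far these counts rest on it was not tested. The lowest p values among the replication factors belonged to PSF1, a subunit of the GINS helicase cofactor, with a change of 0.49 (SE 0.17, adjusted p = 0.472 by edgeR), and MCM10, a fork assembly factor, with -0.53 (SE 0.20, adjusted p = 0.522 by edgeR). PSF1 stood at 12.8, 12.8 and 10.8 CPM in mock, 17.1, 18.8 and 14.6 CPM after 1 day and 14.9, 13.6 and 20.4 CPM after 7 days. All 6 treated libraries were thus above all mock libraries for PSF1, and 1 day 2 was not low. Over all genes 6.52% were higher without overlap at 1 day and 4.62% at 7 days. PSF2 and SLD5 of the same list went the other way at 1 day, with changes of -0.14 (SE 0.18) and -0.38 (SE 0.20). G1/S regulators had a median of -0.04, CDK inhibitors of 0.05 and the activators of the anaphase-promoting complex with the MYB3R factors of -0.04. At 7 days the medians of these 5 lists lay between -0.0081 and 0.07.

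Levels of the members differed more between genes than between groups. Per kilobase of exon, mean CPM over the 9 libraries was highest for TSO2 at 35.6, followed by PCNA2 at 23.6, PCNA1 at 20.6, KNOLLE at 18.5, CYCA3;2 at 17.4 and CDKB2;1 at 17.1. The lowest were CYCA2;1 at 0.871, CYCA3;1 at 2.45 and CYCB2;1 at 2.87. MCM genes lay between 5.81 for MCM6 and 13.8 for MCM7, although their products form 1 complex. B-type cyclins lay between 2.87 for CYCB2;1 and 11.8 for CYCB1;2. The members with the lowest levels, CYCA2;1 and CYCA3;1, were also those with the largest fitted changes and widest intervals at 1 day, which rest on 11 to 67 reads per library.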

How the data were processed

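The deposited table gives the authors' raw read counts for 28775 genes in 9 libraries, and its 2 blank lines were left out. A column kit served for RNA and a stranded total RNA kit for the libraries, per the labels' protocols. Per the submitters' processing notes the authors' tools were FastQC, cutadapt and edgeR. The sources used here do not give the aligner, the counter, the build, the annotation or the use of strand. Sample titles gave groups and replicate numbers.

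Counts were filtered with filterByExpr, scaled by TMM and fitted with edgeR 4.0.16 in R 4.3.3 (quasi-likelihood, all 9 libraries, 3 groups, Benjamini-Hochberg over 19580 genes). A standard error is the size of the log2 fold change over the root of its F statistic. DESeq2 1.42.0 was an alternative. Log2 CPM carry a prior count of 2. Names, exon lengths and upstream windows came from RefSeq TAIR10.1. All 38 members and the 10 lists (109 genes) were chosen with earlier results of these data known. Values in every library are given for the member with the highest mean CPM and those with the lowest p against mock of each class, and for MCM5, PCNA1, PCNA2, CYCB1;1, CDKB2;1, KNOLLE and CYCD3;1. PSF1 and MCM10 had the lowest p of their list at 1 day. TOPII, MYB3R4, SMR7, PSF2, SLD5, PLT2, SHR, SCR, WOX5 and the differentiated root markers were named after their values were seen. No libraries of a group had counts within sampling noise of each other (chi-square per degree of freedom 10.1 to 32.1). Deviations of libraries with the same replicate number correlated at 0.21, 0.26 and 0.25 between 1 day and 7 days. The values were 0.003, 0.34 and -0.14 between mock and 1 day and -0.09, 0.42 and -0.19 between mock and 7 days. Among libraries of unlike number, mock 1 correlated at 0.36 with 1 day 3 and at 0.33 with 7 days 3, the other shallow libraries. Equal numbers thus went with a positive value throughout only between 1 day and 7 days, and the labels state no pairing.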

Additional observations from a re-analysis of the deposited data

Results flagged for a closer look

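MCM5 lay below the mock mean in all 3 libraries at 1 day and above it in all 3 at 7 days, at 28.6, 18.8 and 25.3 CPM and 34.3, 31.1 and 31.6 CPM against a mock mean of 30.9 CPM. The difference between both effects was 0.42 on the log2 scale (SE 0.16), with an unadjusted p of 0.024 and an adjusted p of 1.00 by edgeR over all genes, so it did not pass. It was 0.26 without 1 day 2. Mock libraries of MCM5 spanned 26.6 to 35.6 CPM and overlapped both groups.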

How the results depend on the processing

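Across 20 alternatives per comparison (RLE or upper quartile scaling, no filter or a minimum of 1 CPM in 3 libraries, DESeq2, the replicate block, only the groups compared, the shallow libraries or organelle genes left out, an adjusted p under 0.1, and each library left out in turn) 0 of the 38 genes were called in any of the 3 comparisons. With the replicate block the 1 day S-phase median was -0.24, with 31 of 38 genes lower and 3 at an unadjusted p under 0.05, and no call of a member changed. A fit of only the groups compared with the replicate block was added after the data were seen. The mitotic median at 7 days against mock, 0.04 with all libraries, ranged from -0.011 without 7 days 2 to 0.10 without 7 days 3. The S-phase median at 1 day, -0.21, ranged from -0.37 without 1 day 3 to 0.04 without 1 day 2, and the mitotic one, -0.10, from -0.22 without 1 day 1 to 0.04 without 1 day 2. The S-phase median at 7 days, -0.04, was 0.02 without the shallow libraries. RLE and upper quartile scaling changed no direction of the S-phase and mitotic medians. Calls over all genes at 1 day, 2 higher and 29 lower, were 62 and 141 by DESeq2, 12 and 49 without a filter, 25 and 69 without the 3 shallow libraries, 21 and 53 with only the groups compared and the block, 6 and 48 at an adjusted p under 0.1, 4 and 8 without mock 2, 5 and 15 without 1 day 3, 0 and 11 without 7 days 1, and 0 without mock 3, 1 day 1 or 1 day 2. At 7 days against mock they were 0 by edgeR, 20 higher and 25 lower by DESeq2 and 13 lower without the shallow libraries. CYCA2;1 and CYCA3;1 rest on 11 to 67 reads a library, and every group on 3 libraries.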
